A study of Caenorhabditis elegans with 2 samples.

Results

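The 106 neuropeptide genes described here are the protein-coding genes of Caenorhabditis elegans whose names begin with flp (31 genes), nlp (71 genes), pdf, ntc or snet (4 genes together: pdf-1, pdf-2, ntc-1 and snet-1), out of 19973 protein-coding genes in the annotation. They were taken by name alone. Binding of ZFH-2, a transcription factor with zinc fingers and homeodomains, was read at each gene from chromatin immunoprecipitation sequencing (ChIP-seq) peak lists. The worms, strain RW12167, carried GFP inserted by CRISPR at the zfh-2 gene (allele st12167, with an unc-119(+) marker flanked by loxP sites) in an unc-119(tm4063) background, and an antibody against GFP was used for the precipitation. Whole young adults at 64.5 hours formed 1 group of 2 biological replicates, grown from starved first-stage larvae. A list from whole worms does not tell which cells, or how many, carry a peak. No untagged worms or control library were analysed here, so all values are those of the tagged strain.

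Neuropeptide genes encode precursor proteins that enter the secretory pathway. Convertases cut the precursors at pairs of basic residues, trimming and amidating enzymes finish the peptides, and dense-core vesicles release them onto G protein-coupled receptors. FLP genes encode FMRFamide-related peptides ending in arginine, phenylalanine and an amide. NLP genes are the mixed remainder with no RFamide ending and no insulin fold, and they include epidermal antimicrobial peptides as well as neuronal ones. The pdf genes encode homologues of the arthropod pigment dispersing factor, ntc-1 the worm relative of vasopressin and oxytocin, and snet-1 a peptide that limits olfactory plasticity, the change in behaviour after exposure to an odour.

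Peaks were placed at a gene when the summit, the base of highest signal, lay between 1000 bp upstream of the gene and its 3' end. Unless another list is named, counts refer to the conservative list that the authors derived from the pair of replicates, with 7085 nuclear summits. All of them had an irreproducible discovery rate (IDR, a measure of how poorly a peak's rank repeats) of 0.01 or less. The sequences under the summits come first, and the values follow. Of the 18 member summits, 9 lay in coding exons, at 8 genes. For 7 of these genes the coding strand is given for up to 101 bases centred on the strongest coding summit, 5' to 3' in build ce11, to show which part of the precursor sequence the summits covered. Capitals mark in-frame pairs of lysine or arginine codons, the pairs at which peptide precursors are usually cut. The flp-14 and nlp-26 stretches were shortened at 1 end to coding bases.
nlp-21, chrIII:11389556-11389656, minus strand: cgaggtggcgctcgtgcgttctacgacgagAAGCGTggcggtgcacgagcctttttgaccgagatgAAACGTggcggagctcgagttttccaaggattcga
flp-14, chrIII:12910512-12910597, plus strand: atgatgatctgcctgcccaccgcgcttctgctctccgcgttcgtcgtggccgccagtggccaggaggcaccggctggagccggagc
nlp-32, chrIII:486231-486331, minus strand: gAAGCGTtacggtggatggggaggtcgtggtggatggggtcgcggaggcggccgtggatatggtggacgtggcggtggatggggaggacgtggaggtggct
nlp-14, chrX:8917887-8917987, minus strand: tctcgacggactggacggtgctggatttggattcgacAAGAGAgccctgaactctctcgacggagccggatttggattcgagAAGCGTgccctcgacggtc
nlp-68, chrIII:10538919-10539019, minus strand: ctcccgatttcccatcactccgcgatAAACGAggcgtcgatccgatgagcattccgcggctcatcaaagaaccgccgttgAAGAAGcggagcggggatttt
nlp-26, chrV:19614349-19614446, plus strand: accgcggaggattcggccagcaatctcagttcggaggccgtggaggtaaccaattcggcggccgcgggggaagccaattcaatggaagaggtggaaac
nlp-2, chrX:2344180-2344280, minus strand: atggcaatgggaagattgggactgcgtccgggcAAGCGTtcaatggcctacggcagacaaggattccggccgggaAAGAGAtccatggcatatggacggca

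The stretches at nlp-21, nlp-14, nlp-68 and nlp-2 each held 2 whole basic codon pairs, counted without overlap. At nlp-68 the second marked pair, of lysine codons, is followed directly by an unmarked arginine codon (cgg). The flp-14 stretch begins at the start codon, holds no basic pair, and has a GC content of 69.8%. The nlp-32 stretch holds 1 pair, and 55.4% of its coding-strand bases are G. The nlp-26 stretch has 36.7% G and no basic pair.

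Of the 6 upstream summits, 4 are shown next, since the other FLP summits lay upstream. Each stretch is 101 bases on the member's strand in build ce11, and capitals mark the 21 bases centred on the summit.
flp-16, chrII:13234994-13235094, plus strand: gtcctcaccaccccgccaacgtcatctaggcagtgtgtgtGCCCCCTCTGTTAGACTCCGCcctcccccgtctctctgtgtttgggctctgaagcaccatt
flp-12, chrX:4592590-4592690, minus strand: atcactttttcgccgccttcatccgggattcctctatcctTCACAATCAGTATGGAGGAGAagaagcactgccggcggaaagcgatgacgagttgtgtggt
nlp-67, chrX:16184094-16184194, plus strand: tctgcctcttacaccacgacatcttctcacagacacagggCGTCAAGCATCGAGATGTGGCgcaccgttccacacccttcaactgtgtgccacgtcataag
nlp-25, chrV:19605583-19605683, plus strand: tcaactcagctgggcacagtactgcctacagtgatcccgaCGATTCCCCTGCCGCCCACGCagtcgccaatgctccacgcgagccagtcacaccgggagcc

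Of the 106 members, 13 had a conservative summit (12.3%, 95% Wilson interval 7.31 to 19.9%), against 19.5% of all protein-coding genes under the same window. That value lies just inside the upper end of the members' interval. Of the FLP genes, 3 of 31 had one (9.68%, 3.35 to 24.9%), and of the NLP genes 10 of 71 (14.1%, 7.83 to 24%). The remaining 4 genes (pdf-1, pdf-2, ntc-1 and snet-1) had none, which with so few genes allows a share of up to 49% by the same interval. The FLP share was 4.41 percentage points below the NLP share (difference -4.41, 95% Newcombe interval -16.2 to 12), an interval that spans 0, so no difference between the families was detectable with these numbers of genes. Members are not replicates and no test was made across them, and the intervals cover the counting of genes only.

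Each replicate's own thresholded list gave fewer. In replicate 1, 7 members had a summit (6.6%, 3.24 to 13%), against 14% of all protein-coding genes. In replicate 2 it was 8 members (7.55%, 3.87 to 14.2%), against 14.7%. The FLP count was 1 of 31 in each replicate (flp-14 in both), and the NLP count was 6 of 71 in replicate 1 and 7 of 71 in replicate 2. In the longer ranked lists, which hold peaks before the IDR threshold, 29 members had a summit in replicate 1 (27.4%, 19.8 to 36.5%, against 41.1% of all genes). In replicate 2 it was 31 members (29.2%, 21.4 to 38.5%, against 43.4%). The FLP and NLP shares there were 32.3% and 25.4% in replicate 1 and 29% and 29.6% in replicate 2. The members' share was thus below the share over all genes in each of these 5 lists. Of these lists, only in the conservative one did the members' interval contain the value of all genes. The order of the families was not the same in replicate 1's ranked list as in the thresholded lists.

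**Figure D1:**
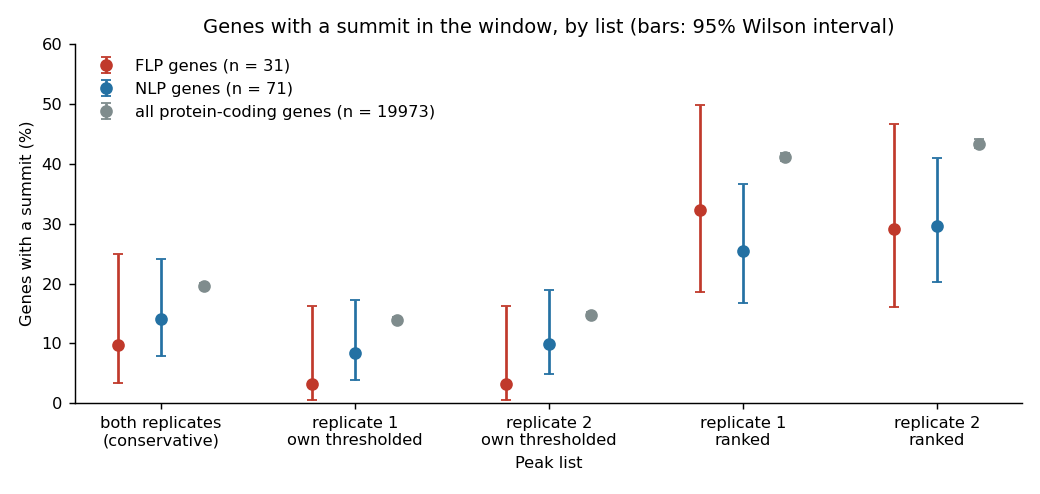
Percentage of FLP genes, NLP genes and all protein-coding genes with a summit from 1000 bp upstream to the 3' end (vertical axis), in the conservative list and in each replicate's own thresholded and ranked lists (horizontal axis). Points are shares and bars 95% Wilson intervals; FLP and NLP intervals overlap in every list, and both families' points lie below that of all genes.

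The strongest FLP summit was at flp-14 (WBGene00001457, III 12910510 to 12914783, plus strand), which encodes several copies of an RFamide peptide. The summit lay at III 12910547, 37 bp inside the gene, in codon 12 of 143 and in exon 1 of 4. Its signal, the authors' value for the height of the peak, was 211, rank 1042 of 7085. In replicate 1's own list the peak had signal 82.3, rank 2318 of 4281, with an IDR of 0.00174 in the ranked list. In replicate 2's it had signal 126, rank 540 of 4696, with an IDR of 4.59e-05. Both replicates' own lists therefore held it, higher in the ranking in replicate 2, and the summits lay 0 and 25 bp from the conservative one.

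The other FLP summits were weaker and were in neither replicate's own thresholded list. At flp-16 (WBGene00001459, II 13235306 to 13237417, plus strand), another RFamide gene, the summit lay 262 bp upstream at II 13235044, with signal 120 and rank 3513. In the ranked lists its signal was 68.4 in replicate 1 and 52.2 in replicate 2. Its IDR was 0.0104 in replicate 1's ranked list and 0.0124 in replicate 2's, just above the 0.01 limit in both, since each list carries its own IDR. At flp-12 (WBGene00001455, X 4591281 to 4592350, minus strand), one of the RFamide genes that act in turning of the male during mating, the summit lay 290 bp upstream at X 4592640, with signal 72.3 and rank 6638. In the ranked lists its signal was 39.7 in replicate 1, with an IDR of 0.0574, and 34.7 in replicate 2, with an IDR of 0.0559. It was also missing from the authors' other pooled list, in which 2 FLP genes and 11 members in all had a summit (10.4%, 5.89 to 17.6%, against 19.7% of all genes).

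**Figure D2:**
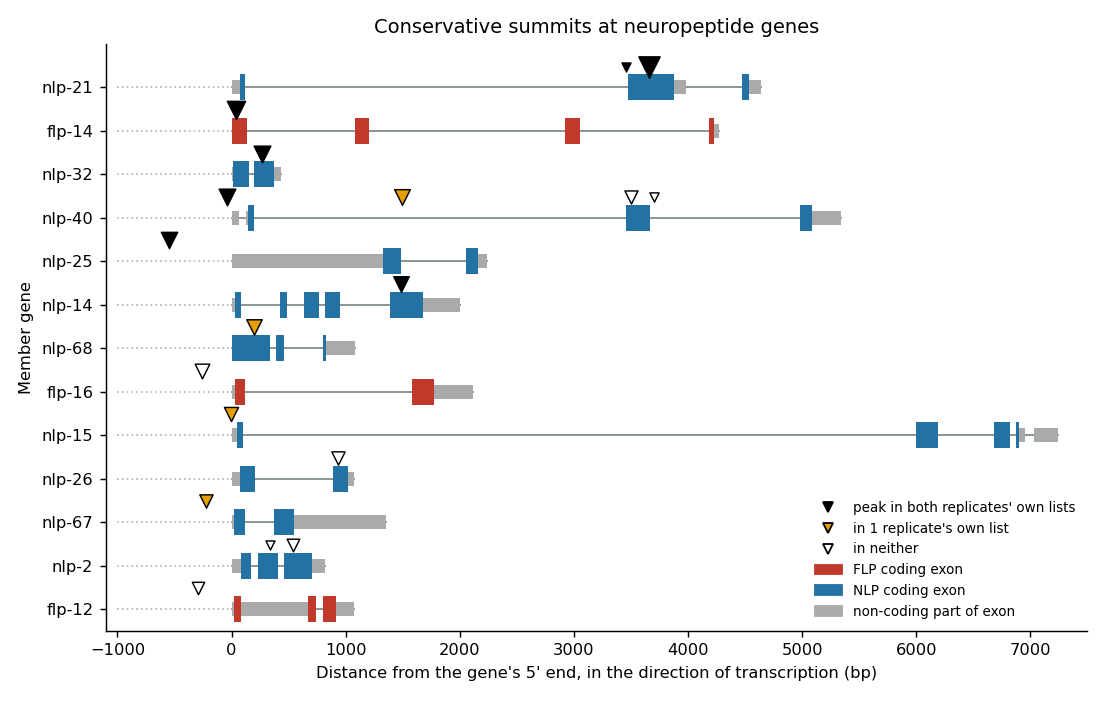
The 13 members with a conservative summit, from highest to lowest signal, drawn from 1000 bp upstream of the 5' end to the 3' end (horizontal axis, bp). Triangles are summits, larger for higher signal, black where both replicates' own lists held a peak, orange where 1 did and white where neither did; 6 of the 18 lie upstream and 9 in coding exons.

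Both replicates' own lists also held a summit at 5 NLP genes (7.04% of NLP genes), which with flp-14 makes 6 members (5.66%), against 11.4% of all protein-coding genes. The strongest of all member summits was at nlp-21 (WBGene00003759, III 11388624 to 11393262, minus strand), whose peptide is widely used as a marker cargo of dense-core vesicles. It lay at III 11389606, in codon 76 of 164, in exon 2 of 3, with signal 303 and rank 354. The replicates had signal 155.5 (rank 496, IDR 3.93e-05, replicate 1) and 149 (rank 290, IDR 1.23e-05, replicate 2). A further summit of signal 17.4 in the same peak interval lay 199 bp away in the adjoining intron.

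At nlp-32 (WBGene00003770, III 486114 to 486547, minus strand), a short glycine-rich gene, the summit lay in codon 69 of 105, with signal 169 and rank 1788. The replicates' own lists gave it signal 73.1 (rank 2923, IDR 0.00358) in replicate 1 and 96 (rank 1208, IDR 0.000507) in replicate 2, a higher place in replicate 2. At nlp-14 (WBGene00003752, X 8917423 to 8919423, minus strand), 1 of the worm's orcokinin-like peptide genes with a part in sleep, it lay in codon 160 of 224, in the last exon, with signal 140 and rank 2617. Both replicates' own summits were at the same base as the conservative one, with signal 73 (rank 2925, IDR 0.0061) in replicate 1 and 65.3 (rank 2775, IDR 0.00197) in replicate 2.

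At nlp-25 (WBGene00003763, V 19606180 to 19608419, plus strand) the summit lay 547 bp upstream at V 19605633, with signal 159 and rank 2041. The own lists gave it signal 80.7 (rank 2416, IDR 0.00194) in replicate 1 and 78.2 (rank 1965, IDR 0.00783) in replicate 2. This base is in a coding exon of the neighbouring kcnl-1, a potassium channel gene, so the summit cannot be given to nlp-25 by position alone.

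The gene with the most summits was nlp-40 (WBGene00022276, I 11495 to 16837, plus strand), which encodes an intestinal peptide that acts in the defecation cycle. It had 4 summits. The strongest, with signal 168 and rank 1824, lay 40 bp upstream of the 5' end, and both own lists held it, with signal 94.6 (rank 1694, IDR 0.00102) in replicate 1 and 77.4 (rank 1999, IDR 0.000753) in replicate 2. An intronic summit 1492 bp downstream had signal 143 and was in replicate 1's own list (IDR 0.00161) but not in replicate 2's (IDR 0.0109). The other 2, at 3504 and 3705 bp in a coding exon and the next intron, had signals 85.8 and 20.3 and were in neither.

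Another 3 NLP genes had a peak in 1 replicate's own list, 1 in replicate 1's only (0.943% of members, against 2.56% of all genes) and 2 in replicate 2's only (1.89%, against 3.27%). At nlp-15 (I 12988231 to 12995475), the second orcokinin-like gene, the summit lay 8 bp upstream of the 5' end with signal 107, rank 4202, an IDR of 0.00855 in replicate 1 and of 0.0153 in replicate 2. At nlp-68 (III 10538081 to 10539163) it lay in codon 65 of 145 with signal 138, rank 2728, an IDR of 0.0108 in replicate 1 and of 0.00447 in replicate 2. At nlp-67 (X 16184369 to 16185722) it lay 225 bp upstream with signal 90.6, rank 5374, an IDR of 0.0511 in replicate 1 and of 0.00843 in replicate 2. In these cases the other replicate's ranked list held the peak with an IDR above 0.01.

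The last 2 NLP genes were in neither own list. At nlp-26 (V 19613461 to 19614534), which lies near nlp-25, the summit was in codon 61 of 90, with signal 91.1, rank 5340, and an IDR of 0.0255 in replicate 1 and 0.0252 in replicate 2. At nlp-2 (X 2343947 to 2344766), an RPamide peptide gene, 2 summits had signals 77.3 and 17.8, in codons 115 and 66 of 171. Both summits also lay in an intron of T01B6.1. The best ranked peak over them had an IDR of 0.0904 in replicate 1 and 0.26 in replicate 2. With the summits of nlp-25 these were the only member summits that also lay in the window of another protein-coding gene.

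**Figure D3:**
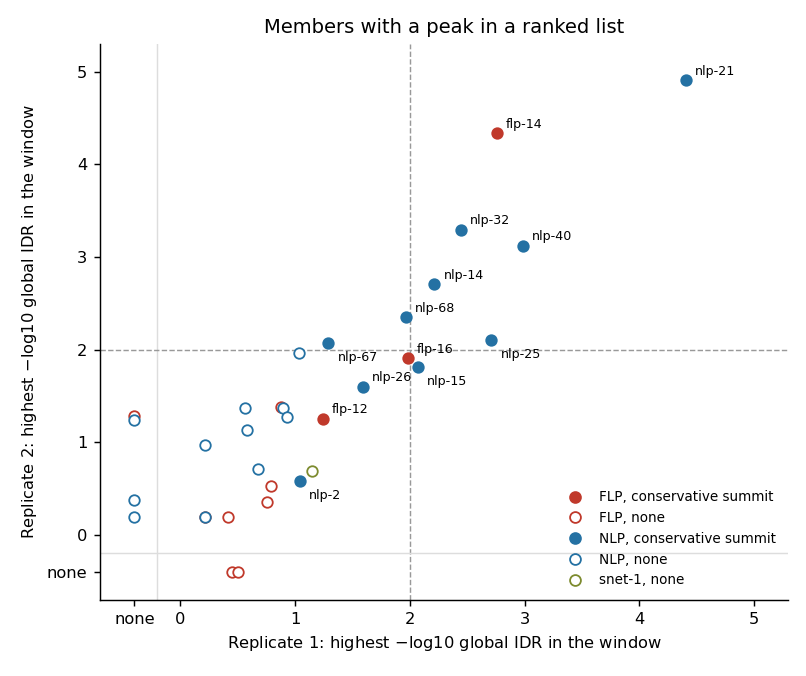
For each member with a summit in a ranked list, the highest −log10 of the global IDR among its summits in replicate 1 (horizontal) and replicate 2 (vertical); dashed lines mark an IDR of 0.01 and "none" means no ranked summit. Filled points have a conservative summit, and the 6 in the upper right are flp-14, nlp-14, nlp-21, nlp-25, nlp-32 and nlp-40.

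Of the 18 member summits, 7 lay in a peak that overlapped both own lists (38.9%, 20.3 to 61.4%), against 47.7% of the 5891 summits in the windows of all protein-coding genes. Another 2 overlapped replicate 1's list only and 2 replicate 2's only, and 7 overlapped neither (38.9%, against 28.4%). The 7 in both include 2 summits of 1 peak at nlp-21, the weaker lying 180 and 199 bp from the replicates' own summits. The 7 in neither likewise include paired summits of overlapping peaks at nlp-2 and nlp-40. The median signal was 114 at members and 119 in all gene windows, and 2 of 18 member summits ranked in the strongest 20% of the list (nlp-21 and flp-14). No member had a summit in a replicate's own list without one in the conservative list, a case that was also uncommon over all genes (1.8%).

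The other 93 members had no conservative summit. In the ranked lists, 14 of them had a summit in both replicates, 2 in replicate 1 only, 4 in replicate 2 only and 73 in neither. Over all 106 members, 25.5% had a ranked summit in both replicates, against 37.8% of all protein-coding genes, and 68.9% in neither, against 53.4%. Of the 93 members without a conservative summit, none reached an IDR below 0.05 in replicate 1, and 4 did in replicate 2. The same share was not taken over all genes. The lowest IDR in replicate 2 was at nlp-12, a cholecystokinin-like peptide gene, with 0.0108 there and 0.0928 in replicate 1. Next in replicate 2 were flp-33 (0.134 in replicate 1 and 0.042 in replicate 2), nlp-22 (0.127 and 0.0427) and nlp-23 (0.274 and 0.0427). Of these, nlp-22 is another RPamide gene, which acts in larval sleep. The windows of nlp-22 and nlp-23 overlap and their replicate 2 values are equal, so 1 peak may count for both.

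Outside the FLP and NLP families, the best peak at snet-1 had an IDR of 0.0706 in replicate 1 and 0.202 in replicate 2, and pdf-1, pdf-2 and ntc-1 had no ranked summit in either. The nearest conservative summit to the window of a member without one was a median of 13181 bp away and at most 200088 bp, and 4 such windows (nlp-4, nlp-23, nlp-76 and nlp-49) had one within 1000 bp. These distances were not taken over all genes, so they do not tell whether members lie unusually far from summits.

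The epidermal antimicrobial genes of the nlp-29 cluster (nlp-27, nlp-28, nlp-29, nlp-30, nlp-31 and nlp-34) had no summit in any of the lists, ranked lists included. For 6 genes a count of 0 allows a share of up to 39% (95% Wilson interval), and most genes of the genome (53.4%) had no ranked summit in either replicate. Their windows were short, with a median of 1420 bp. By chromosome, the share of members with a summit lay above that of all genes on III (4 of 13, 30.8%, against 24.1%). It lay below it on I (2 of 9, 22.2%, against 25.8%), II (1 of 13, 7.69%, against 20.5%), IV (0 of 15, against 17.2%), V (2 of 21, 9.52%, against 13%) and X (4 of 35, 11.4%, against 22.2%). These counts are small. The X chromosome carried 33% of members but 13.7% of all protein-coding genes.

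Most member summits lay in coding exons or upstream. Upstream sequence held 6 (33.3%, 16.3 to 56.3%), against 24.1% of the 6755 pairs of a gene and a summit over all protein-coding genes. Coding exons held 9 (50%, 29 to 71%), against 47.3%, introns 3 (16.7%, 5.84 to 39.2%), against 25.4%, and untranslated exons none, against 3.26%. Each of these intervals contains the value of all genes.

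Of the FLP summits, 2 of 3 were upstream, and of the NLP summits 4 of 15, numbers too small to set the families apart. Counted by gene, upstream sequence held a summit at 6 members (2 FLP and 4 NLP genes, 5.66% of members), against 7.39% of all genes, and the gene itself held one at 8 members (1 FLP and 7 NLP genes, 7.55%), against 14.8% of all genes. In a promoter window that reached 1000 bp before the 5' end and 200 bp past it, the FLP share (3 of 31, 9.68%) was above the NLP share (5 of 71, 7.04%), with 8.82% of all genes.

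Over all members, coding sequences of those with a summit were longer, at a median of 123 codons (85 to 224) against 89 (59 to 326) in members without one. They held a median of 3 basic codon pairs (0 to 13), against 2 (0 to 16), and per 100 codons 3.33 against 2.86. In NLP genes the medians were 133 against 82 codons and 4.5 against 2 pairs. In FLP genes the order was the reverse, at 92 against 95.5 codons and 3 against 3.5 pairs. Per 100 codons, the medians were 3.71 against 2.86 in NLP genes and 3.26 against 3.10 in FLP genes. Among FLP genes, 29 of 31 had at least 1 in-frame phenylalanine, glycine and basic codon triplet, which encodes the end of an RFamide peptide but does not require the arginine before it. Of the NLP genes, 10 of 71 had one. The 3 FLP genes with a summit had 1 triplet (flp-12), 3 (flp-16) and 4 (flp-14). The highest number of such triplets was 9, in flp-3 and flp-13, which had no summit. These are descriptions across genes, with overlapping ranges and no test.

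Members with a summit had windows that reached a higher GC content than those of members without one. The highest GC content in the window, read in stretches of 101 bases, had a median of 62.4% in the 13 members with a summit (56.4 to 72.3%) and 54.5% in the 93 without (45.5 to 64.4%). Over all protein-coding genes the medians were 62.4% with and 54.5% without. Windows with a summit were also longer, at a median of 3001 bp against 1979 bp in members and 4339.5 against 2875 bp over all genes. A longer window holds more such stretches, and GC content was not compared at equal window length. All genes were then put into 5 equal bins by the highest GC content in the window. In the lowest bin 0 of 14 members had a summit (0.0751% of all genes in that bin) and in the next 0 of 28 (1.08% of all genes). In the middle bin it was 1 of 23 (4.35%, against 6.71% of all genes in that bin), above it 5 of 27 (18.5%, against 26.2%), and in the highest bin 7 of 14 (50%, 26.8 to 73.2%, against 63.7%).

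The highest bin held 13.2% of members, 22.6% of FLP genes (7) and 9.86% of NLP genes (7). Within it 2 of 7 FLP genes and 5 of 7 NLP genes had a summit. The FLP genes of high GC content without a conservative summit were flp-33 and flp-34 (each 64.4%), flp-23 and flp-5 (each 62.4%) and flp-32 (61.4%), of which flp-34, flp-5 and flp-32 had no ranked summit in either replicate.

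**Figure D4:**
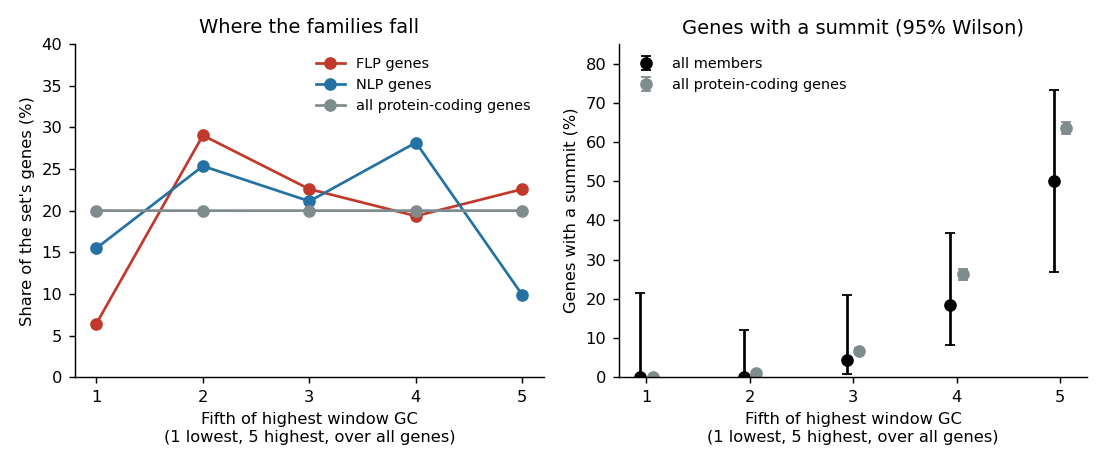
Left, share of FLP, NLP and all protein-coding genes (%) in each of 5 equal bins of the highest GC content in the window. Right, share of members and of all protein-coding genes with a conservative summit (%) in each bin, with 95% Wilson intervals; both shares are highest in bin 5, at 50% of members and 63.7% of all genes, and the members' intervals contain the value of all genes in every bin.

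Windows were also short. Their median length was 2017 bp for members, 2186 bp for FLP genes and 1860 bp for NLP genes, against 3027 bp for all protein-coding genes, and 52.8% of members fell in the lowest of 5 equal bins of window length. Of the 56 members there, 2 had a summit (3.57%, 0.985 to 12.1%), against 12.8% of all genes in that bin. In the next bins, from short to long windows, it was 4 of 19 members (21.1%, against 12.6%), 3 of 9 (33.3%, against 13.5%), 1 of 13 (7.69%, against 19.3%) and 3 of 9 (33.3%, against 39.5%). The members' share was thus above that of all genes in 2 bins and below it in the other 3. Per length, member windows held 0.0654 summits per kb (18 summits), against 0.0784 in the windows of all protein-coding genes. The value was 0.0318 per kb in FLP windows and 0.0872 per kb in NLP windows, which include the 4 summits of nlp-40. The NLP value also counts weaker summits in overlapping peaks at nlp-2, nlp-21 and nlp-40. In replicate 1's own list the member value was 0.0291 per kb, against 0.0464 for all genes, and in replicate 2's own list 0.0291, against 0.0516. In each own list the NLP value was 0.0407 and the FLP value 0.0106, both below that of all genes. How far GC content and window length set the members' count was not tested.

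The sequence at member summits was GC-rich, like that of other summits. Within 50 bp of the summit the mean GC content was 56.7% ± 7.51 (SD over 18 summits), against 55.3% ± 6.84 over the 5891 summits in all gene windows. The lowest value was 39.6%, at the weak intronic summit of nlp-40, and the highest 67.3%, at nlp-32. Read in 21-base stretches, members' GC content was 57.1% at the summit (against 57.2% for all gene windows), 42.9% at 300 bp before it along the chromosome (against 40.7%) and 37.3% at 300 bp after it (against 39.5%). The highest member value, 60.3%, was 20 bp before the summit.

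**Figure D5:**
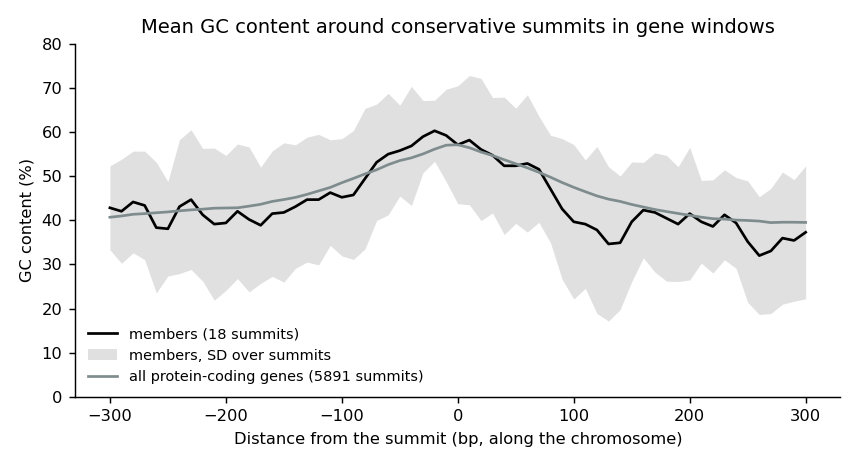
Mean GC content (%) in 21-base stretches by distance from the summit (bp), for the 18 member summits (black, with the SD over summits shaded) and the 5891 summits in windows of all protein-coding genes (grey). At the summit the curves are at 57.1% for members and 57.2% for all genes, and both are lower at either end.

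Of 5 motifs searched on either strand within 50 bp of a summit (the GA repeat GAGAGAGA, the E-box CAGCTG, the E-box CACGTG, the E-box CACCTG and the homeodomain core TAATTA), 1 match was found at the 18 member summits, CAGCTG upstream of nlp-25. Over all summits of the list CAGCTG occurred at 6.2%, and at least 1 of the 5 occurred at 18.6%. A match is a description of the letters and not a binding site. Of the member summits, 4 of 18 (22.2%) had any 20-base word that occurs elsewhere in the genome, against 33% of all summits, and none had most of its words repeated, against 3.68%, differences that 18 summits are too few to resolve. The one with the most was the intronic summit of nlp-40 at 1492 bp, with 24 of 82 words.

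Genes that process, release and receive the peptides were counted in the same way. Of 10 precursor-processing genes, 5 had a conservative summit (50%, 23.7 to 76.3%), against 19.5% of all protein-coding genes. The strongest were at pgal-1 and pghm-1, which encode amidating enzymes (signal 251, upstream, and 226, in an intron), and at egl-21, the carboxypeptidase gene that trims basic residues (175, in an untranslated exon). All 3 genes had a summit in both replicates' own lists, whereas the convertase gene egl-3 (conservative signal 78) had none in either. These own-list summits were counted by window. At pghm-1, with 4 conservative summits, replicate 1's own list held 2 and replicate 2's held 4, not matched to the named one. The windows of these 10 genes were longer than those of the peptide genes, with a median of 5784 bp.

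All 3 dense-core vesicle genes had a summit in an intron: unc-31, the CAPS gene (signal 234), hid-1 (142) and ida-1 (104), the last absent from replicate 2's own list. Of 106 genes for peptide receptors, 11 had a summit (10.4%, 5.89 to 17.6%), led by npr-23 (signal 449, upstream), npr-33 (205, intron) and npr-37 (187, intron). Of 23 neprilysin peptidase genes, whose family degrades peptides, 9 had one (39.1%, 22.2 to 59.2%), led by nep-24 (233), nep-2 (192) and nep-17 (127). Of 39 insulin-like peptide genes 4 had one (10.3%), all in coding exons, the strongest at ins-24 (131), ins-39 (123) and ins-29 (92.9). In the own lists of replicates 1 and 2, 4 and 9 receptor genes had a summit (3.77% and 8.49%). It was 5 neprilysin genes in each (21.7%) and 2 and 3 insulin-like genes (5.13% and 7.69%). Over all protein-coding genes these lists gave 14% and 14.7%. Of the genes named from these families, nep-17 and ins-29 had no summit in replicate 1's own list. In the conservative list the share over all protein-coding genes was 19.5%, and the interval for the 3 of 3 dense-core vesicle genes was 43.85 to 100%. Median windows were 11278 bp for the dense-core vesicle genes, 4825.5 bp for receptors and 4778 bp for neprilysins. Insulin-like genes had 1655 bp, against 3027 bp for all genes. In the longest of 5 equal bins of window length, 39.5% of all genes had a summit. The lists differ in length and window, and no list was tested against another. How far window length set these counts was not tested.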

How the data were processed

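ChIP-seq peak lists of 2 biological replicates were used. The authors' lists are in build ce11 and are output types of IDR, per the file headers and labels; the aligner, peak caller and control were not given in the sources used here. The deposited lists give per peak a signal whose scaling is not stated, used here only to rank peaks within a list, and a score that follows the logarithm of the IDR. The deposited ranked lists give −log10 of the global IDR. Without read numbers in these lists, the sequencing depth is unknown.

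Gene positions came from Ensembl release 115 (WBcel235), whose chromosomes contain every peak, and sequences from the RefSeq WBcel235 assembly. Only genes named by this annotation are members. Mitochondrial peaks, of which the conservative list has 2, were not counted. Counting was tested on planted summits. Shares have 95% Wilson intervals and family differences Newcombe intervals. With 1 group and no control samples, no test was made. Coding positions use the longest coding sequence over a summit. Named were all members with a conservative summit and, of each pathway list, the 3 genes with the highest signal; members without one, egl-3 and the FLP genes of high GC content were named after their values were seen. The planned counts on precursor proteins were made on codons instead, since no protein table was used here. Members, lists and motifs were chosen with earlier results of these data known. Alternatives were other lists, windows, overlaps, 1 summit per merged region and unshared windows. Versions were 2.3.3 for pandas, 2.4.6 for NumPy, 1.17.1 for SciPy, 3.10.9 for matplotlib and 3.11.15 for Python.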

Additional observations from a re-analysis of the deposited data

How the results depend on the processing

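Of the 13 members, 7 had a summit with replicate 2 left out and 8 with replicate 1 left out, and the FLP count was 1 in both. The NLP count was 6 and 7, and the density was 0.0291 summits per kb of member window in both, each of these lists holding fewer peaks. The stronger 50% of peaks gave 8 members, 6 NLP genes and 0.0327 summits per kb. The gene alone gave 8 members and 1 FLP gene, and by construction 0% of summits upstream. The promoter window gave 8 members and 5 NLP genes, with 75% of summits upstream because most of the gene is left out. Under the other settings the member count was 11 to 15 and within 1.5 times the main value: 2000 bp upstream added nlp-23 and nlp-76, an overlap of 1 bp added nlp-4, the other pooled list lost flp-12 and nlp-2, 500 bp upstream lost nlp-25, and unshared windows lost nlp-2 and nlp-25. The members' share was below that of all genes under each of the 12 alternatives. The FLP share was below the NLP share under all of them except the promoter window (9.68% against 7.04%), where the interval also spans 0. Density and upstream share are not given for the 2 overlap settings. At 100 bp either side, the GC content was 53.1% and the motif matches 1. No paired analysis was possible because there is 1 group. With 31 FLP genes, differences of several percentage points between the families cannot be detected.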
